A study of Homo sapiens with 6 samples.

Results

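The salt-inducible kinases *SIK1*, *SIK2* and *SIK3* and the CREB-regulated transcription coactivators *CRTC1*, *CRTC2* and *CRTC3* were examined for acetylation of lysine 27 of histone H3 (H3K27ac), a mark of active promoters and enhancers. Chromatin immunoprecipitation sequencing (ChIP-seq) used SU-CCS-1 cells, a human line from a clear cell sarcoma, whose labelled genotype is the EWSR1::ATF1 (EA1) fusion. There were 3 H3K27ac and 3 input samples, input being chromatin sequenced without immunoprecipitation, and all 6 came from cells with EA1, with no treatment named in the labels. The deposited file used here was 1 list of 30784 peaks (hg38) with positions only. A window was set around each gene, from 100 kb before to 100 kb after its GENCODE version 44 body, and the 6 windows held 58 peaks, which is 0.188% of the list. A peak with any base within 3 kb of an annotated transcript start site of a gene was called a promoter peak of that gene.

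The list held no signal, p-value or read count, so the depth behind a peak is unknown. It had no column per replicate, so no value below has a replicate error, and no test between genes was made. Each gene is instead set beside 20033 protein-coding genes as a description. The series holds 1 cell line in 1 condition, so there is no cell without EA1 to compare with. A gene without a peak was below the calling cutoff or was filtered out, which does not show that the mark was absent. Promoter peaks of melanocytic and neural crest genes were present at 7 of 9 genes, including *SOX10*, *MITF* and *PMEL* but not *TYR* or *TYRP1*, and at 63.4% of all protein-coding genes. The same count was 0 of 5 for skeletal muscle, 1 of 5 for epithelial, 0 of 4 for endothelial and 0 of 4 for blood cell genes.

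SIKs are kinases of the AMPK-related family that are activated by the kinase LKB1. They phosphorylate CRTC proteins and class IIa histone deacetylases, which 14-3-3 proteins then hold in the cytoplasm. When cyclic AMP rises, protein kinase A (PKA) inhibits the SIKs, and CRTCs, freed by phosphatases such as calcineurin, enter the nucleus and bind the basic leucine zipper of CREB, ATF1 and CREM at cyclic AMP response elements. EA1 retains the basic leucine zipper of ATF1. *SIK1* is itself a known target of CREB, and in melanocytes the SIK and CRTC axis acts on *MITF*.

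All 6 genes had a promoter peak and all 6 had their canonical start site inside a peak, but more peaks, and more summed peak width, were listed around *SIK1* than around any of the other 5. Of all protein-coding genes, 63.4% had a promoter peak and 53.5% had the canonical start site inside a peak, so the presence of the mark at all 6 is a common state in these cells. The *SIK1* window held 24 of the 58 peaks, with a summed width of 70.5 kb out of 116 kb. The next highest was *CRTC2* with 12 peaks and 20.0 kb. *CRTC1* followed with 6 peaks and 7.62 kb, *SIK2* with 7 peaks and 7.59 kb, *SIK3* with 5 peaks and 6.79 kb, and *CRTC3* with 4 peaks and 3.91 kb. Protein-coding genes had a median of 4 peaks and 5600 bases, which puts *CRTC3* below the median in summed width and the other 5 above it. Windows of long genes are longer, however. By the share of the window in peaks, 61.1% of protein-coding genes were at least as high as *SIK3* and 65.6% at least as high as *CRTC3*. For the other members this figure was 48.5% or less. Of the 24 peaks at *SIK1*, 17 lie in sequence that hg38 holds in near-identical form at another place, as described for that gene.

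**Figure D1:**
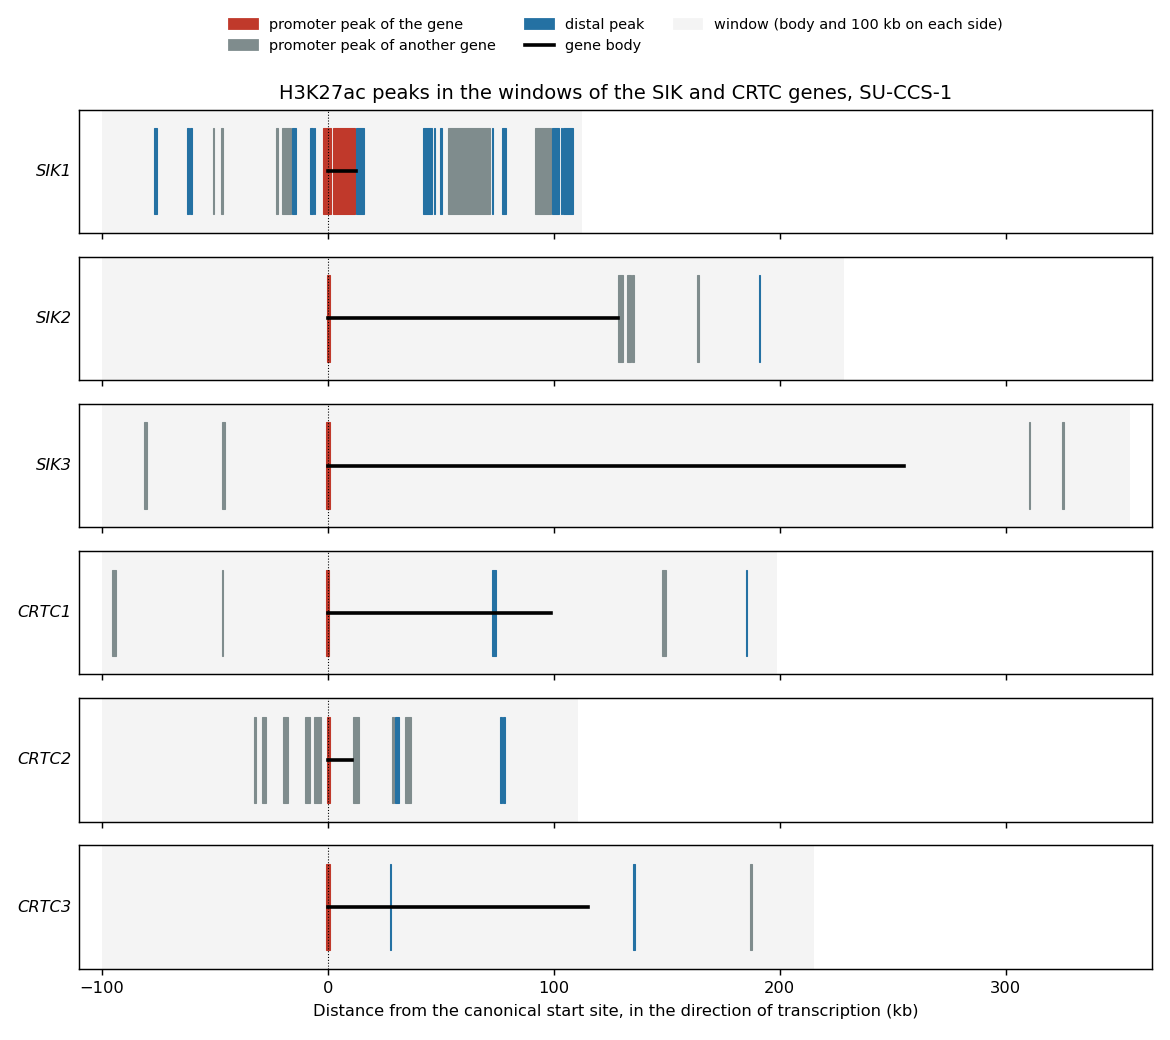
H3K27ac peaks in the windows of the 6 genes, by distance from the canonical start site in kb in the direction of transcription. Red blocks are promoter peaks of the gene, grey blocks promoter peaks of other genes, blue blocks distal peaks, the black line is the gene body and the shaded area the window. *SIK1* held 24 peaks on both sides of a body covered by red blocks, while the long bodies of *SIK2* and *SIK3* were empty past their start.

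**Figure D2:**
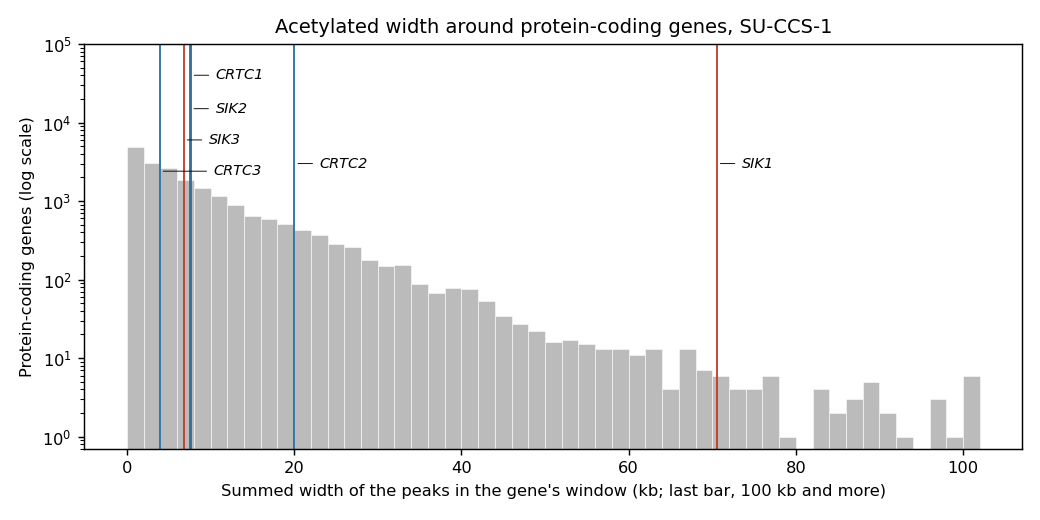
Summed peak width per gene window in kb (horizontal) against the number of protein-coding genes (vertical, log scale), with lines for the 6 genes, red for SIKs and blue for CRTCs. *SIK1*, at 70.5 kb, lies in the sparse tail, *CRTC2* lies at 20.0 kb, and the other 4 genes lie between 3.91 and 7.62 kb, in the tall bars on the left.

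*SIK1*, the cyclic AMP-inducible member of the kinase family, had peaks listed over nearly its whole body, in sequence that hg38 holds at a second place as well. The gene (ENSG00000142178.9) lies at chr21:43414483-43427131 on the minus strand and measures 12.6 kb, of which 91.3% was inside peaks. The median for protein-coding genes was 1.45%, and 0.948% of them reached the *SIK1* value. Its window ranked 47 of 20033 by summed width and 32 by the share of the window in peaks, which was 33.2%. By number of peaks it ranked 181, and 1.12% of genes had as many. For 23 of the 24 peaks, *SIK1* was the protein-coding gene with the nearest start site. No other protein-coding gene had a start site in the window, although 6 non-coding genes did.

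At *SIK1* the peak over the canonical start site, chr21:43425811-43428160, measured 2350 bases and reached 1029 bases upstream and 1320 bases downstream. After a gap of 880 bases came a peak of 9960 bases, chr21:43414971-43424930, which ran over the remaining introns and exons and was the 100th widest of the 30784. A peak of 840 bases lay 270 bases upstream of the start-site peak, and these 3 were the promoter peaks of the gene. *SIK1* was the only one of the 6 genes with 3 promoter peaks or more, which 6.90% of protein-coding genes had. Of the 12701 genes with a promoter peak, 0.614% had one as wide as 9960 bases, against a median of 1600 bases. All 6 annotated start sites of *SIK1* were inside a peak. A further peak of 3550 bases, chr21:43411201-43414750, lay over the 3′ end.

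Outside the gene, the widest peak in the window was chr21:43355421-43373940. It measured 18520 bases, was the 10th widest in the list and began 53.2 kb downstream of the start site. It was a promoter peak of the non-coding genes *LINC01679* and ENSG00000225637. Farther downstream, a peak of 6950 bases was a promoter peak of *LINC00322*, and peaks of 3210 and 4550 bases lay beyond it. On the upstream side the widest peak measured 3870 bases, was a promoter peak of *LINC00319* and lay 16.2 kb from the *SIK1* start. Of the 24 peaks 15 were distal, meaning within 3 kb of no annotated start site (38.7% of all peaks were), 6 were promoter peaks of non-coding genes and 3 were promoter peaks of *SIK1*. In the other 5 windows, promoter peaks of any gene made up 26 of 34 peaks (76.5%), against 37.5% in the *SIK1* window and 61.3% in the whole list.

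The sequence upstream of the *SIK1* start is printed because it holds the canonical ATF/CREB site inside a promoter peak. The capitals mark each match to TGACG, the core of a cyclic AMP response element, on either strand (CGTCA is the same core on the other strand). The palindrome TGACGTCA contains 2 overlapping matches.
SIK1 promoter, chr21:43427132-43427431, minus strand, 300 bases ending just before the start site: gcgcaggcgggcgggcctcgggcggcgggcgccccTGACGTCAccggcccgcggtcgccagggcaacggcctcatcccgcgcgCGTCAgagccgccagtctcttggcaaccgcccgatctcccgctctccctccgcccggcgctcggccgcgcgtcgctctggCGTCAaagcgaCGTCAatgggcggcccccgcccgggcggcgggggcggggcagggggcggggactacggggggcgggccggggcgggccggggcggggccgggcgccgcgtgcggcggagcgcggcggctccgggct
There were 5 matches in these 300 bases. The full TGACGTCA lay 265 to 258 bases before the start site, and the other 3 cores began 217, 137 and 126 bases before it. All lie inside the start-site peak.

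A near-identical copy of much of this locus is present in hg38. The stretch chr21:43376890-43467714 aligned to chr21:6070554-6161371 in the opposite orientation with an identity of 99.82%, and chr21:43468171-43527131 aligned to chr21:6011436-6070390 with 99.94%. Together they cover 150 kb, or 70.4%, of the *SIK1* window. The copy of the gene, which RefSeq lists as LOC102724428 with the synonym *SIK1B*, lies at chr21:6111131-6123778. Of the *SIK1* body, 12637 bases were identical in the copy and 11 differed, and the 300 bases before the start site differed at 0 positions. Reads can therefore rarely be placed at *SIK1* rather than at the copy, and the peaks at *SIK1* cannot be assigned to *SIK1* alone. Whether the cells hold the copy, or only the assembly does, was not tested. Of all 50-base sequences in the peaks of the *SIK1* window, 53.7% occurred once in the 24 assembled chromosomes of hg38, against 95.7% to 100% in the peaks of the other 5 windows. That figure pools unlike peaks. The share was 2.98% in the start-site peak, 3.83% in the peak of 9960 bases and 0% in the promoter peak of 840 bases. In the peaks wholly outside the copied sequence it was 99.1% to 100%.

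Peaks were also listed at the copy, and reads that match both places can give like peaks at each. The likeness below is therefore no separate evidence of acetylation at the copy. How such reads were divided is not given in the sources used here, so the widths and ranks at *SIK1* may be affected. The copy held 14 peaks with a summed width of 39.8 kb, of which 3 lay over the copied gene. The widest peak at the copy, chr21:6113801-6128320, measured 14520 bases and was the 28th widest in the list. Within the aligned stretches the peaks at *SIK1* covered 34.3 kb, and 94.0% of that was also inside peaks of the copy. In the other direction, 81.0% of the peak width at the copy was inside peaks at *SIK1*. The *SIK1* body was 91.3% inside peaks at its own place and 95.7% when the peaks of the copy were laid over it.

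The remaining 7 peaks of the *SIK1* window lay wholly outside the copied sequence, all of them downstream of the gene. They included the peak of 18520 bases and summed to 35.9 kb, which is 57.0% of the 62.9 kb of the window without a copy. This width alone exceeds the 20.0 kb of the *CRTC2* window. As in that window, much of it belonged to neighbours, because the peaks of 18520 and 6950 bases were promoter peaks of non-coding genes. Without the peaks in copied sequence, 5 of the 6 genes had a promoter peak and *SIK1* was the gene left without, since its 3 promoter peaks all lie in the copied part.

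**Figure D3:**
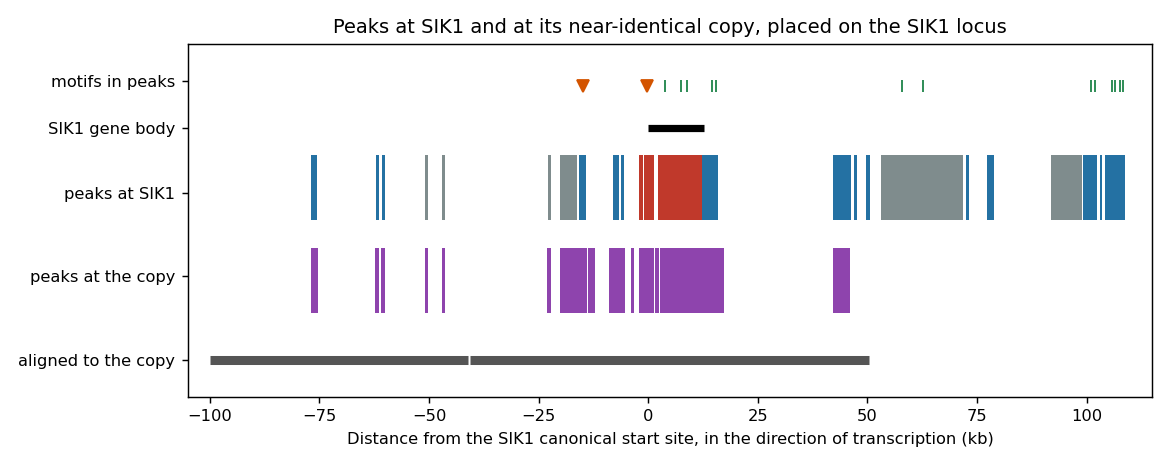
Peaks at *SIK1* and peaks at its copy, both placed on the *SIK1* locus by distance from the start site in kb. Colours of the *SIK1* peaks are red for its promoter, grey for promoters of other genes and blue for distal, purple marks peaks at the copy, the dark bar the aligned stretches, orange triangles the full ATF/CREB site and green ticks the AP1 site. The 7 peaks at the right end, 53.2 kb or more downstream, lie outside the aligned stretches.

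*SIK2* and *SIK3*, the other kinases of the family, each had a peak at the start and no other peak called in the body. *SIK2* (ENSG00000170145.5, chr11:111602449-111730855, plus strand) had 1 promoter peak, chr11:111602121-111603390, of 1270 bases. It was the only peak in a body of 128 kb, of which 0.734% was inside peaks, and the rest formed a stretch of 127 kb with none. Of the other 6 peaks in the window, 5 were promoter peaks of *PPP2R1B*, a scaffold subunit of protein phosphatase 2A whose gene adjoins the 3′ end of *SIK2*, and the last was a peak of 440 bases in an intron of *ALG9*. Of the 2 annotated *SIK2* start sites, the internal one lay 12409 bases from the nearest peak.

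*SIK3* (ENSG00000160584.17, chr11:116843402-117098437, minus strand) is the longest of the 6 genes, with a body of 255 kb. Its promoter peak, chr11:117097331-117099110, measured 1780 bases, and 254 kb of the body behind it had no peak. Of 12 start sites 4 were in that peak, and the other 8, all internal, lay 60868 to 140287 bases from any peak. The other 4 peaks of the window were promoter peaks of *SIDT2*, *PAFAH1B2*, *ZPR1* and the pair *BUD13* and *ZPR1*, and no distal peak was called. A body with no peak beyond the promoter was common among long genes. Of 2623 protein-coding genes over 100 kb with a promoter peak, 48.2% had no other peak in the body.

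The promoter sequences of *SIK2* and *SIK3* are printed because each holds 2 copies of the core TGACG, again in capitals on either strand. They are taken from RefSeq (GRCh38.p14), 250 bases up to the base before the start site.
SIK2 promoter, chr11:111602199-111602448, plus strand: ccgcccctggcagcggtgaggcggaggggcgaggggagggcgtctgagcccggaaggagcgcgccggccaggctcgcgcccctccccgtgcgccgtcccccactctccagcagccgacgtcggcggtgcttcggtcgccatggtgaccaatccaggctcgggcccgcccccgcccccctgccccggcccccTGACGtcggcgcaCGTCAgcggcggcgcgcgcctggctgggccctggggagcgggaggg
SIK3 promoter, chr11:117098429-117098678, minus strand: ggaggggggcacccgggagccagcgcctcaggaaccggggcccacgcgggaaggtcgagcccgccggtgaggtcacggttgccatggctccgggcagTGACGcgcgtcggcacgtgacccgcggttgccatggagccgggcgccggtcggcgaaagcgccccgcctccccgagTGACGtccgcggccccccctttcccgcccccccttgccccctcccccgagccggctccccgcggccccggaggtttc
In *SIK2* the cores began 59 and 46 bases before the start site and faced each other. In *SIK3* they began 153 and 77 bases before it in the same orientation, and a TGAGGTCA, a match to the flexible form TGANNTCA, began 183 bases before it. In the RefSeq windows of 250 bases before to 50 after a start site, *SIK1* had 3 cores, *CRTC3* 1 and *CRTC1* 0. Of 22199 such windows of protein-coding genes, 27.9% held at least 1 core, 7.38% at least 2 and 1.75% at least 3. The full TGACGTCA was in 2.26% of them and in none of the 5 windows of these genes, since that of *SIK1* lies just beyond the 250 bases. These promoters were rich in G and C, at 75.3% to 82.3% against a median of 62.3%, and the cores contain the pair CG. No promoter entry was used for *CRTC2*.

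*CRTC1*, *CRTC2* and *CRTC3*, the coactivators that SIKs phosphorylate, each had 1 promoter peak, narrower than the median of 1600 bases. *CRTC1* (ENSG00000105662.16, chr19:18683678-18782333, plus strand) had a promoter peak of 1170 bases, chr19:18683081-18684250. It also had a distal peak of 1850 bases in an intron, chr19:18756401-18758250, that began 72.7 kb downstream of the start site and was wider than the promoter peak. Its other 2 start sites, both internal and of protein-coding transcripts, lay 20792 and 13491 bases from the nearest peak. In the rest of the window were promoter peaks of *REX1BD*, *KLHL26* and *UPF1* and a peak of 430 bases over *GDF1* and *CERS1*.

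*CRTC2* (ENSG00000160741.17, chr1:153947669-153958615, minus strand) had the narrowest promoter peak of the 6 genes, 1030 bases at chr1:153957711-153958740. Of the genes with a promoter peak, 78.5% had one at least as wide. The rest of its body, 10042 bases, had no peak. The 20.0 kb in its window belonged mainly to its neighbours, because all 10 other protein-coding genes with a start site there had a promoter peak and 8 of the 12 peaks were promoter peaks of other genes. The widest, of 2800 bases, was at *SLC39A1*, which encodes a zinc transporter, and others were at *RPS27*, *RAB13*, *JTB*, *CREB3L4*, *DENND4B* and *GATAD2B*. *CRTC2* was the nearest gene for 1 of the 12 peaks.

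*CRTC3* (ENSG00000140577.17, chr15:90529923-90645345, plus strand) had a promoter peak of 1460 bases, chr15:90529391-90530850, and an intronic peak of 590 bases, chr15:90557331-90557920, that began 27.4 kb downstream of the start site. Its window was the poorest of the 6 in peaks, with 1.24% of its length inside them. A distal peak of 720 bases lay in *CRTC3-AS1* and a peak of 1140 bases at the promoter of *BLM*, a DNA helicase gene. Of 17 start sites 7 were in the promoter peak and 10, all internal, were outside peaks.

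The start-site peaks of the 6 genes reached farther downstream than upstream, except at *CRTC1*. In *SIK1* the reach was 1029 bases upstream and 1320 downstream, in *SIK3* 682 and 1097, in *CRTC3* 532 and 927, in *SIK2* 328 and 941, and in *CRTC2* 128 and 901. In *CRTC1* it was 599 and 570. The median of the 10725 protein-coding genes with the canonical start inside a peak was 668 upstream and 847 downstream. With only the widest 50% of peaks (at least 1060 bases), 5 of the 6 genes kept a promoter peak, all but *CRTC2*, beside 48.9% of protein-coding genes. With the widest 25% (at least 1760 bases) only *SIK1* and *SIK3* did, 2 of 6, beside 26.7%.

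**Figure D4:**
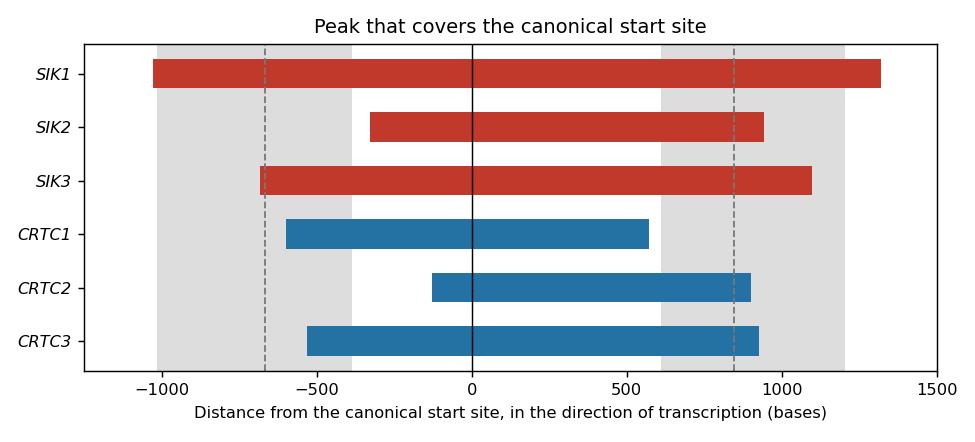
Extent of the peak over the canonical start site of each gene, in bases from that site in the direction of transcription, red for SIKs and blue for CRTCs. Dashed lines are the medians of protein-coding genes (668 upstream, 847 downstream) and grey bands run between their quartiles; *SIK1* passes both bands and *CRTC2* has the shortest upstream reach.

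Peaks were joined into regions at the distance the study used for its super-enhancers, and regions were ranked by summed peak width. The study ranked its regions by reads normalized to input, so the regions here are not its super-enhancers. Of 17049 regions, 879 lay past the point where the ranked curve reaches a slope of 1, at 7.97 kb. *SIK1* and *CRTC2* lay in such a region, 2 of 6 genes, and 7.67% of protein-coding genes did. The *SIK1* region, chr21:43411201-43450020, joined 9 peaks with 24980 bases of width over 38.8 kb and ranked 75. All 9 lie in copied sequence, so this region is not placed for certain. Farther downstream in the same window, chr21:43348221-43384990 ranked 66 with 26.5 kb, and part of it lies in copied sequence. The region chr21:43306231-43335180, wholly outside the copied sequence, ranked 211 with 16.9 kb and runs past the end of the window. The *CRTC2* region, chr1:153944941-153991400, joined 7 peaks with 13.4 kb over 46.5 kb and ranked 342, and 6 of the 7 were promoter peaks of other genes. With a joining distance of 5 kb, with peaks close to start sites left out, or with the widest 50% of peaks, 1 of the 6 genes lay past the point. The regions holding the other 4 genes were single peaks ranked 6976 to 14832.

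The full ATF/CREB site TGACGTCA occurred 4 times in the 58 peaks, in 4 peaks (6.90%), and 2.58% of all peaks held it. It occurred in 2 peaks of the *SIK1* window, namely the start-site peak and a distal peak 14.9 kb upstream, both in copied sequence. The others were at promoter peaks of neighbours, *SIDT2* in the *SIK3* window and *SLC39A1* in the *CRTC2* window. The 30 bases around each site are printed in the direction of transcription of the named gene, with the site in capitals; these are all its occurrences in the 58 peaks.
SIK1, 0.258 kb upstream, chr21:43427378-43427407, minus strand: gcgggcgccccTGACGTCAccggcccgcgg
SIK1, 14.9 kb upstream, chr21:43442059-43442088, minus strand: atacctgtctcTGACGTCActcaggcctgt
SIK3 window, 80.3 kb upstream, chr11:117178670-117178699, minus strand: ggcccgcccgcTGACGTCAggggaaactga
CRTC2 window, 5.04 kb upstream, chr1:153963637-153963666, minus strand: ttgctcctaacTGACGTCActcccggtctg
Per Mb of peak sequence there were 34.3 sites in the 6 windows and 19.1 in all peaks, a comparison that rests on 4 sites. The AP1 site TGAGTCA was in 9 of the 58 peaks (15.5%, beside 16.8% of all peaks), and 13 of its 18 occurrences were in 5 peaks of the *SIK1* window. Of these 13, the peaks at 3210, 4550 and 18520 bases of width, outside the copied sequence, held 8. The *SIK1* window also held 60.6% of the summed peak width of the 6 windows. AP1 sites per Mb of peak sequence numbered 184 in the *SIK1* window, 155 in the 6 windows and 150 in all peaks. The flexible form TGANNTCA, which includes TGACGTCA, was in 46.6% of the 58 peaks and 40.8% of all peaks. The core TGACG, which also includes it, was in 55.2% and 47.2%. These shares do not allow for width, and the 58 peaks had a median width of 1235 bases against 1060 for all peaks. Counted per Mb, TGANNTCA occurred 489 times in the 58 peaks and 466 in all peaks, and TGACG 841 and 665 times. Both strands were searched, and a match is a string of letters, not a measured binding site.

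Among genes of the pathway around SIKs and CRTCs and kinases related to the SIKs, 50 of 58 (86.2%) had a promoter peak, beside the 63.4% of protein-coding genes. All 5 genes of the LKB1 complex, the upstream activator, had a promoter peak. *STK11*, which encodes LKB1 itself, had a promoter peak of 10340 bases. Its window held 28 peaks with 66.3 kb, close to the 24 peaks and 70.5 kb of *SIK1*. Of these 28 peaks, 3 were promoter peaks of *STK11*, and how many were promoter peaks of its neighbours was not counted. The *SIK1* window held no start site of another protein-coding gene. The scaffold genes *CAB39* and *CAB39L* had promoter peaks of 1770 and 3030 bases. Of 12 other AMPK-related kinases 10 had a promoter peak, and *BRSK2* and *NUAK2* did not.

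Of the 7 genes for PKA subunits, the kinase that inhibits SIKs, 6 had a promoter peak and *PRKACG* did not. The regulatory subunit gene *PRKAR1A* had the widest of them, 4850 bases. All 5 calcineurin genes except *PPP3R2* had a promoter peak, the widest being 3240 bases at the catalytic subunit gene *PPP3CA*. All 7 genes for 14-3-3 proteins had one, from 1860 bases at *YWHAE* to 4870 bases at *YWHAB*. All 4 class IIa deacetylase genes had one, from 510 bases at *HDAC9* to 8980 bases at *HDAC4*, whose long gene had 57 peaks with 116 kb in its window.

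The CREB family genes that CRTCs bind, and the acetyltransferases they act with, had promoter peaks at 5 of 5. The widest of each gene measured 4320 bases at *CREB1*, 2140 at *ATF1*, 3120 at *CREM*, 2130 at *CREBBP* and 2510 at *EP300*. Of 13 known CREB target genes 9 (69.2%) had a promoter peak, close to the 63.4% of all protein-coding genes. By their widest promoter peak, the 9 included the nuclear receptor genes *NR4A1*, *NR4A2* and *NR4A3* with 2190, 4470 and 4420 bases. Also among them were *FOS* with 3770 bases, the coactivator gene *PPARGC1A* with 6600 bases and *MITF* with 3390 bases. The 4 without were *G6PC1*, *BDNF*, *CRH* and *SST*. *PCK1*, which like *G6PC1* encodes an enzyme of gluconeogenesis, had one of 1200 bases, *DUSP1* one of 3230 bases and *PER1* one of 1190 bases. All 3 CRTC genes had 1 promoter peak each, of 1030 to 1460 bases. These were narrower than the widest promoter peak of all 5 CREB family and acetyltransferase genes, of which *CREM* had 8 promoter peaks and *CREBBP* 6. The promoter peak of *SIK2*, at 1270 bases, lay in the range of the CRTC genes.

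**Figure D5:**
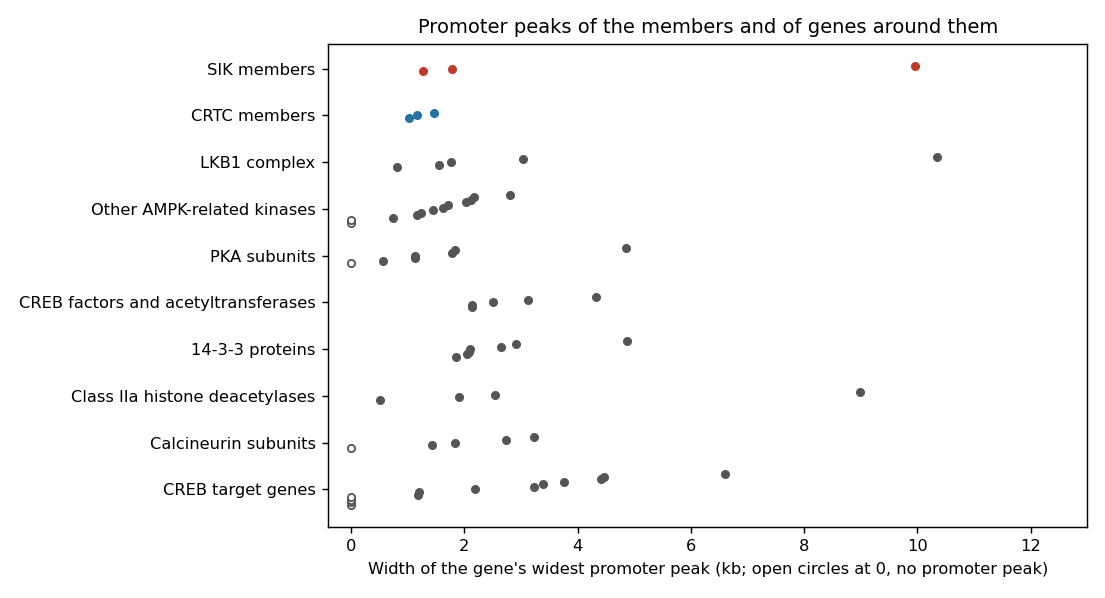
Width in kb of the widest promoter peak of each gene, by group, with 1 circle a gene and open circles at 0 for genes without a promoter peak. *SIK1* at 9.96 kb stands with *STK11* and *HDAC4* at the right, and the 3 CRTC genes lie between 1.03 and 1.46 kb.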

How the data were processed

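ChIP-seq for H3K27ac and input was performed on SU-CCS-1, with 3 samples each. Per the study's methods and the submitters' processing notes, reads were mapped by the authors to hg38 (BWA-MEM 0.7.10-r789); duplicates were removed with samtools, broad peaks were called with MACS2 (2.2.6) against input, and regions on the ENCODE denylist were taken out. The deposited file used here is 1 list for the series, with chromosome, start, end and name of 30784 peaks, and it holds no counts, signal or values per sample. How the replicates were combined for the peak list is not given in the sources used here. Positions are multiples of 10 bases, and no peak is narrower than 400 bases. Width depends on read depth and on the joining of neighbouring stretches, so wide peaks are not a measure of signal.

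Peaks were assigned with GENCODE version 44 (20033 protein-coding genes, Y copies of shared genes and the mitochondrial genome left out) in Python 3.11.15 with numpy 2.4.6 and pysam 0.24.0. The canonical start site is that of the transcript GENCODE tags as canonical. Regions joined peaks at the study's distance for super-enhancers but were ranked by summed peak width, not by reads. Promoter sequences came from RefSeq (GRCh38.p14), and 5 of the 6 genes matched by symbol. The copy of the *SIK1* locus was found with minimap2 2.31. Peak overlaps, motif counts and the counts of 50-base sequences were tested on simulated data, and ranks were not. The genes, gene lists and rules were chosen with earlier results of these data known, and the genes named are the 6, the lists around them and genes at their peaks. Alternatives changed the promoter window, start sites, flank, peak widths, joining distance and motif search.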

Additional observations from a re-analysis of the deposited data

How the results depend on the processing

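Over 7 results, 42 alternatives were tried, of which 7, those on the copied sequence at *SIK1*, were chosen after seeing the data. Of the 42, 29 kept their result within 1.5 times its value and 13 moved it further. With the widest 25% of peaks, genes with a promoter peak fell from 6 to 2 and their promoter peaks from 8 to 3. Peaks in the 6 windows numbered 58, against 10 in the gene bodies alone, 103 with flanks of 250 kb and 34 with the widest 50% of peaks. Their summed width of 116 kb became 25 kb in the bodies alone and 190 kb with flanks of 250 kb. Genes with a region past the slope-1 point went from 2 to 1 with joining at 5 kb, without peaks lying wholly within 2.5 kb of a start site, and with the widest 50% of peaks. TGACGTCA occurred 4 times in whole peaks and 1 time in their central 200 bases. Leaving out the peaks in copied sequence gave 5 promoter peaks in place of 8 and 1 gene past the slope-1 point in place of 2. It gave 41 peaks with 81.8 kb in the windows, and counting the peaks at the copy as well gave 72 peaks with 156 kb.

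No paired analysis was possible because the list has no values per sample. For the same reason no fit that leaves out a replicate or adds a replicate block was run. The depth behind each peak, and with it the limit of calling, is unknown.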
